A study of Mus musculus with 2 samples.

Results

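The Zbtb32 Fcrl5 B cells of the injured neonatal mouse heart were 245 cells, 97 in the WT library and 148 in the Lyve1 KO library, out of 779 B cells and 6149 immune cells. They were chosen by their own RNA, counted as unique molecular identifiers (UMIs, 1 for each captured RNA molecule). A B cell was a cell with at least 1000 detected genes, at most 10% mitochondrial UMIs, at least 5 UMIs of Cd79a and Cd79b together, and fewer than 2 UMIs each of the T cell gene Cd3e and the macrophage gene Csf1r. A B cell with at least 2 UMIs of Zbtb32 and Fcrl5 together was a Zbtb32 Fcrl5 B cell, and the remaining 243 WT and 291 Lyve1 KO cells are called other B cells.

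B-1 cells are an innate-like lineage of B cells that arises largely before and shortly after birth, renews itself in the body cavities and tissues, and carries IgM with little IgD. They secrete natural IgM without prior immunisation and are held back from B cell receptor signalling by inhibitory receptors. Follicular B cells, by contrast, recirculate through lymphoid follicles and carry IgD and the low-affinity IgE receptor CD23, encoded by Fcer2a. Zbtb32 encodes a zinc finger transcriptional repressor that restrains B cell responses, and Fcrl5 encodes an Fc receptor-like protein of innate-like B cells that dampens receptor signalling.

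Both libraries came from mice given a myocardial infarction (MI) at postnatal day 2, whose hearts were collected 7 days after surgery (age 9 days), and each pooled 5 hearts. One pool was wild type (WT) and the other carried a knockout of Lyve1 (Lyve1 KO), the hyaluronan receptor of lymphatic endothelium and resident macrophages. The study's methods describe a constitutive null line, and the labels name neither the strain nor the sex of the pups. Live CD45+ cells that excluded the dye 7-AAD were sorted, so B cells were taken in with all other leukocytes, and their RNA was read from the 5′ end by droplet single-cell sequencing. Cells were not assigned to single hearts here, so with 1 library per genotype no difference between genotypes was tested against animals. Intervals below cover counting error only.

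The WT library held 67968938 UMIs over 5713 barcodes, of which 3380 passed the gene and mitochondrial limits, and the Lyve1 KO library held 61555917 UMIs over 5285 barcodes, of which 2769 passed. Zbtb32 Fcrl5 B cells were deeply covered, with a median of 28991 UMIs and 5101 genes per cell in WT and 29690 UMIs and 5175 genes in Lyve1 KO. Other B cells had medians of 10818 and 11565 UMIs, so the chosen cells yielded far more RNA molecules each. Because the rule asks for a fixed number of UMIs, a deep cell meets it more easily than a shallow one with the same content. Single-cell shares are therefore also given after every cell was thinned at random to 7000 UMIs, which left out 1 WT member, 43 WT other B cells and 34 Lyve1 KO other B cells. Levels below are in CPM, the UMIs of a gene summed over the cells of a group and scaled to a group total of 1000000 UMIs. The 97 WT cells summed to 3112078 UMIs and the 148 Lyve1 KO cells to 5080444. Across the libraries, 9 barcodes were shared, and 1 of these was a Zbtb32 Fcrl5 B cell in either library.

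The rule genes themselves are given as a description. Zbtb32 (chr7:30589681-30598909, GRCm38) stood at 184 CPM in WT and 190 CPM in Lyve1 KO members, and at 5.31 and 3.66 CPM in other B cells. Fcrl5 (chr3:87435773-87500678, GRCm38) stood at 184 and 121 CPM in members, against 2.48 and 2.09 CPM. Both genes were detected in 73.2% of WT members and 60.1% of Lyve1 KO members. Zbtb32 alone carried 21 WT and 50 Lyve1 KO cells into the group, whereas Fcrl5 alone carried 5 and 9. Those few cells with Fcrl5 alone had lower S100a6, at 92.1 CPM in WT and 781 CPM in Lyve1 KO, compared with 2135 and 3493 CPM in cells with Zbtb32 alone and 2983 CPM in each library in cells with both. For Sox5 the 9 Lyve1 KO cells with Fcrl5 alone were at 244 CPM, near the 226 and 329 CPM of the other subsets, and the 5 WT cells were at 57.6 CPM against 136 and 309 CPM.

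The limit of 2 UMIs cut through a gradient. Only 6 WT and 17 Lyve1 KO cells had exactly 2 UMIs of the rule genes, and 22 in each library had exactly 1, just outside. S100a6, a small calcium-binding protein that was not part of the rule, was at 87.1 CPM in WT B cells with 0 rule UMIs, 1335 CPM with 1, 768 CPM with 2, 1608 CPM with 3 to 9 and 3544 CPM with 10 or more. In Lyve1 KO the same steps were 223, 576, 1849, 2607 and 3628 CPM. Cells with 1 rule UMI were thus already above cells with 0 for this gene, and the part of detection depth in this was not tested. Fcer2a went the other way, from 313 to 16.8 CPM in WT and from 379 to 5.48 CPM in Lyve1 KO between the lowest and the highest bin.

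**Figure D1:**
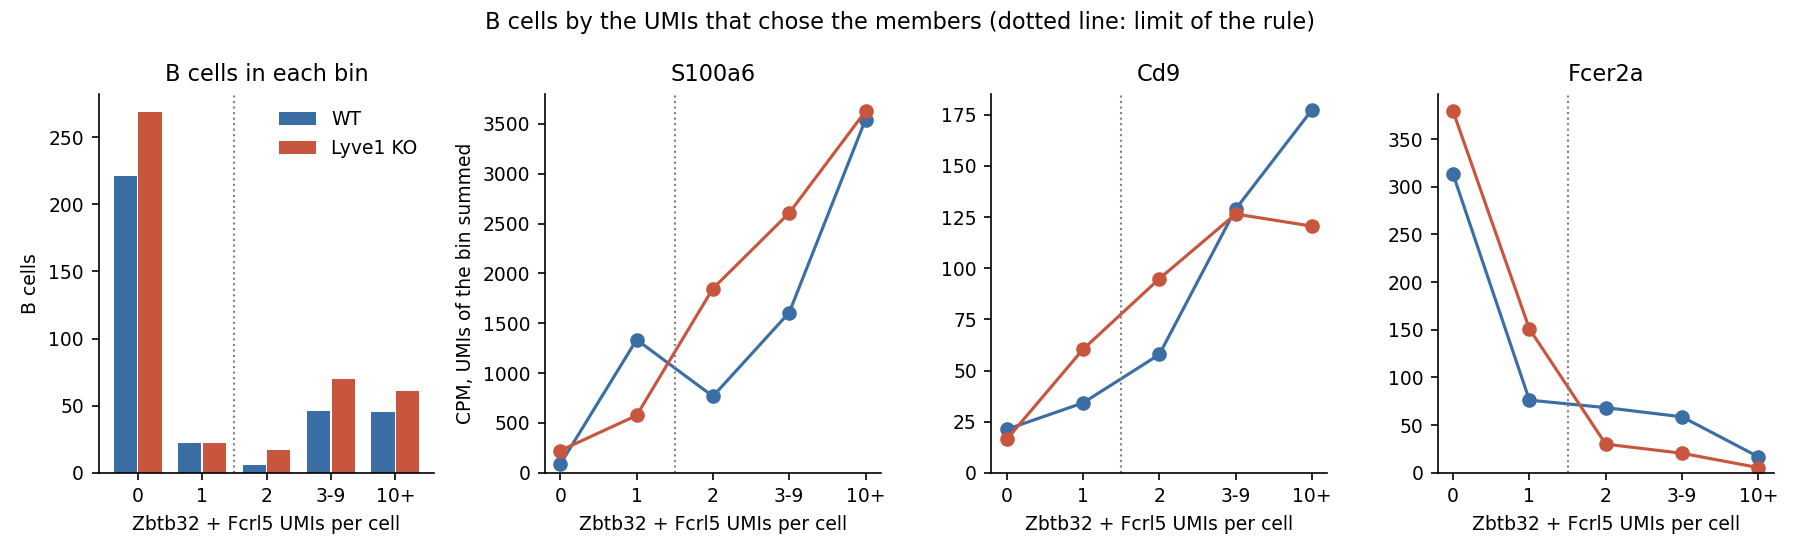
B cells by their UMIs of Zbtb32 and Fcrl5 together (0, 1, 2, 3 to 9, 10 or more) in WT and Lyve1 KO: the number of cells, and the summed level of S100a6, Cd9 and Fcer2a in CPM in each bin. The dotted line marks the limit of the rule, and S100a6 was already at 1335 CPM (WT) and 576 CPM (Lyve1 KO) in cells with 1 UMI, just outside it.

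The 5 marker genes given with the rule describe the group and are not an independent check of its label. Of the 5 markers, Zbtb32 and Fcrl5 chose the cells, Sox5 was higher in members, and Ms4a1 and Mzb1 did not set them apart. Ms4a1, which encodes CD20 and is carried by nearly all mature B cells, was at 1526 CPM in WT members and 1455 CPM in other WT B cells, and at 1610 and 1415 CPM in Lyve1 KO. Mzb1, a chaperone of the antibody-folding machinery, was slightly lower in members at 436 against 529 CPM in WT and 424 against 470 CPM in Lyve1 KO. In WT, 1 other B cell held 230 Mzb1 UMIs, at 5228 CPM. Median cell levels of Mzb1 were 390 CPM in members against 420 CPM in WT, and 405 against 448 CPM in Lyve1 KO. Because Ms4a1 and Mzb1 did not set them apart, the cells are called by their rule genes here.

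To describe the rest of the transcriptome, members were set against other B cells within each library by the log2 ratio of CPM after adding 20 CPM to both sides, for genes with at least 50 UMIs. A gene was counted as past the fold when the ratio was at least 2-fold in either direction (1 on the log2 scale). In WT, 199 of 8492 genes were higher in members (2.34%) and 196 were lower (2.31%). In Lyve1 KO, 170 of 9347 were higher (1.82%) and 194 were lower (2.08%). Past the fold in both libraries were 119 of 8451 genes on the higher side (1.41%) and 115 on the lower side (1.36%), and the median ratio over all genes was -0.08 in WT and -0.06 in Lyve1 KO. These are comparisons of cells that were separated by their own RNA, in single libraries, and carry no test.

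Innate-like B-1 genes stood mostly above their level in other B cells, with a median log2 ratio of 0.60 in both libraries, and 5 of 15 measured genes were past the fold in both, none on the lower side. Cd9, a tetraspanin of B-1, marginal zone and plasma cells, had the highest ratio of these. Its level was 152 CPM (95% Poisson interval 139 to 167) in WT members and 23.0 CPM in other WT B cells, a log2 ratio of 2.0, and 121 against 21.7 CPM in Lyve1 KO, a ratio of 1.76. Sox5, a transcription factor of atypical and long-lived B cells, was at 263 against 71.5 CPM in WT and 292 against 81.8 CPM in Lyve1 KO, ratios of 1.63 and 1.61. Cd300lf, an inhibitory receptor for membrane lipids, was at 52.4 against 2.83 CPM in WT and 49.4 against 5.23 CPM in Lyve1 KO. Ahr, the aryl hydrocarbon receptor that innate-like B cells use as an environmental sensor, reached 112 against 30.8 CPM and 90.7 against 33.7 CPM. Cd80, a costimulatory ligand of T cells that is also carried by B-1 and memory B cells, was at 64.9 against 3.89 CPM and 34.6 against 4.44 CPM. For each of these 5 genes, members of both libraries lay above both groups of other B cells.

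Other genes of the same list were within the fold in at least 1 library. Plac8, abundant in innate-like lymphocytes, was at 1863 against 839 CPM in WT, past the fold at 1.13, and at 1762 against 920 CPM in Lyve1 KO, at 0.92. The classical surface markers of B-1 cells, CD5 and CD43, were low in RNA. Cd5 was at 26.3 against 9.55 CPM in WT and 26.8 against 6.79 CPM in Lyve1 KO, and Spn, which encodes CD43, was at 21.5 against 7.43 CPM and 28.0 against 15.7 CPM. After thinning, a Cd5 UMI was found in 18.8% of WT and 12.8% of Lyve1 KO members, and in 6.0% and 3.9% of other B cells. Bhlhe41, a transcription factor needed for B-1a cells, differed between the libraries: 32.8 CPM in WT members was below the 40.0 CPM of other WT B cells, whereas 77.8 CPM in Lyve1 KO members was above the 48.9 CPM of theirs. Arid3a (91.6 and 93.5 CPM), a factor of fetal-type B cells, and Tnfrsf13b (157 and 172 CPM), which encodes the BAFF and APRIL receptor TACI, were near other B cells, and Lin28b, the RNA-binding protein of the fetal programme, had 0 CPM in WT and 0.197 CPM in Lyve1 KO members. Thus the B-1 list was higher in part, and Cd5, Spn and Bhlhe41 stayed under the fold with 20 CPM added. For low genes this depends on the added CPM: with 5 CPM added, Cd5 was past the fold in both libraries (1.11 and 1.43), Spn in WT alone (1.09 and 0.67) and Bhlhe41 in neither (-0.25 and 0.62).

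**Figure D2:**
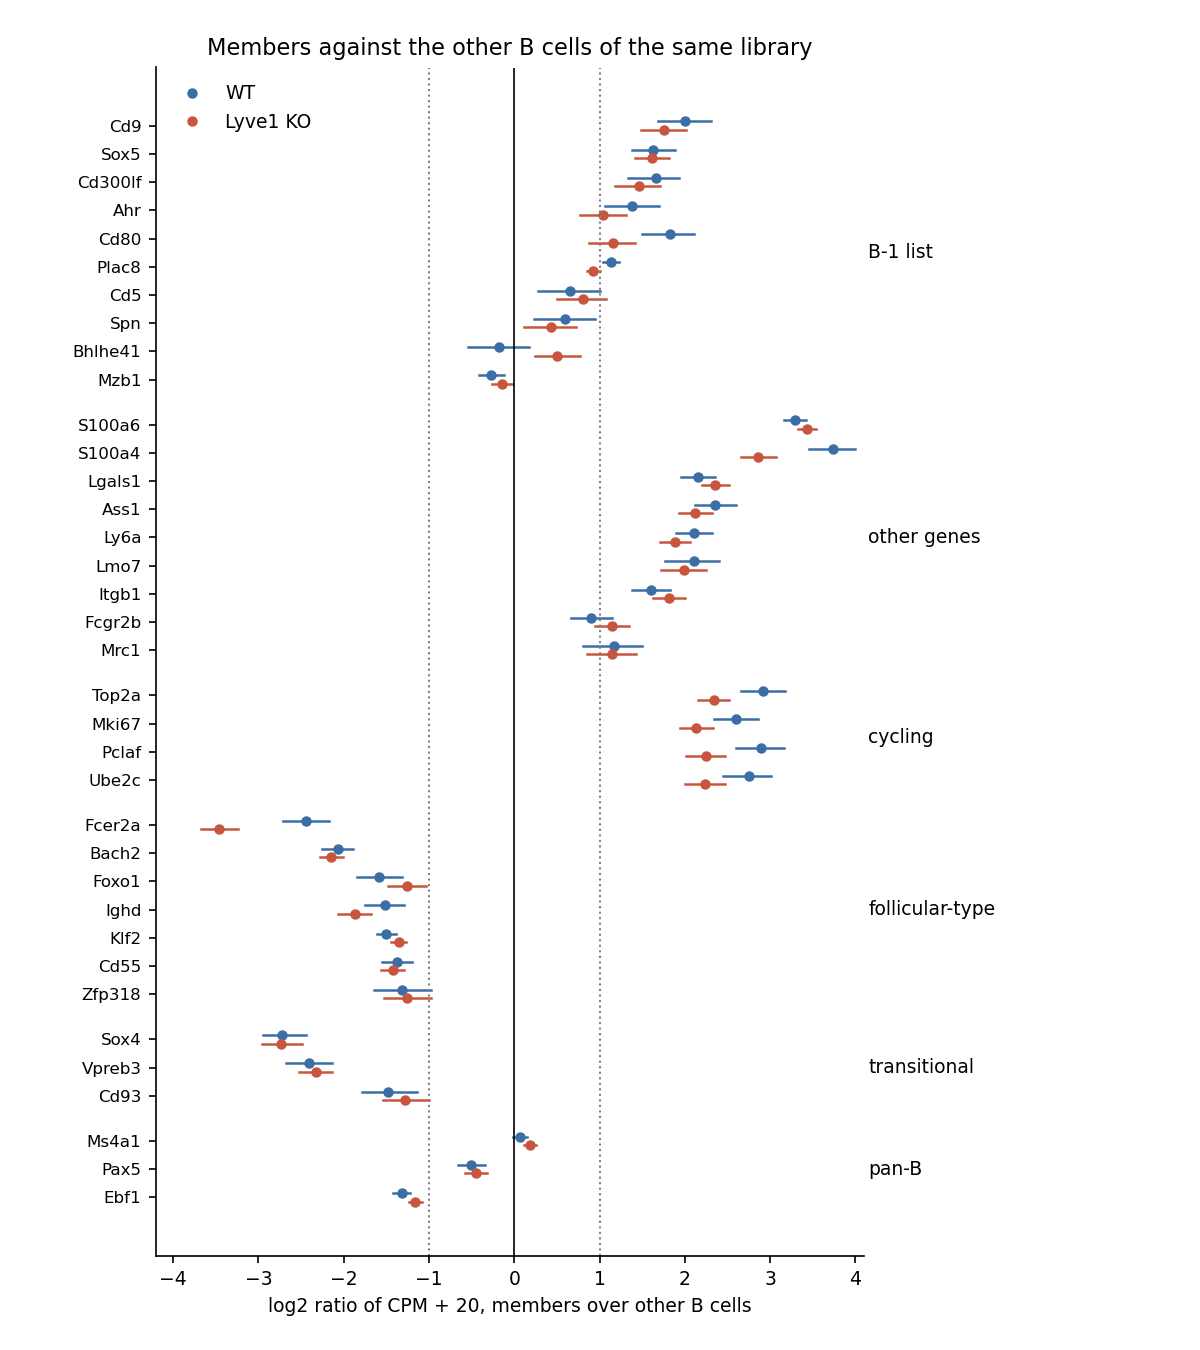
Log2 ratio of members over other B cells (CPM with 20 added) for named genes grouped by role, in WT and Lyve1 KO; bars join the far ends of both groups' 95% Poisson intervals and dotted lines mark 2-fold. S100a6 (3.29 and 3.43) and Sox5 (1.63 and 1.61) lie right of the upper line in both libraries and Fcer2a (-2.44 and -3.46) left of the lower one.

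Among the 15 genes with the highest ratio, counted over genes with a UMI in at least 10% of members in both libraries, 7 were not cell division genes, and S100a6 was the first of them. S100a6 reached 2665 CPM in WT and 3056 CPM in Lyve1 KO members, against 255 and 266 CPM in other B cells, log2 ratios of 3.29 and 3.43. Its neighbour on chromosome 3, S100a4, which acts on the motility of lymphocytes, was at 402 against 11.7 CPM in WT and 500 against 51.5 CPM in Lyve1 KO. Lgals1, the secreted lectin galectin-1, was at 606 against 121 CPM and 747 against 130 CPM. S100a6 and Lgals1 were found across the group, and S100a4 in fewer cells. Lgals1 had a UMI in 93.8% of WT and 93.2% of Lyve1 KO members. S100a4 had one in 58.8% and 73.6%, with median cell levels of 48.2 and 186 CPM, and 1 WT cell held 248 of its 1252 UMIs, without which its WT level was 330 CPM. S100a6 had a UMI in 90.7% of WT and 95.3% of Lyve1 KO members, with median cell levels of 1464 and 2306 CPM, whereas the median of other B cells was 0 in both libraries. At the same depth of 7000 UMIs it was found in 86.5% and 90.5% of members, 23.0% and 22.2% of other B cells, and 32.0% and 24.7% of T cells (cells with at least 2 Cd3e UMIs and no Cd79a or Cd79b).

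The other genes of the 7 were single members of unlike families. Ass1, argininosuccinate synthase of the arginine pathway, was at 413 against 64.4 CPM in WT and 412 against 79.2 CPM in Lyve1 KO. Ly6a, which encodes the interferon-inducible surface protein Sca-1, was at 497 against 100 CPM and 438 against 104 CPM. Lmo7, a cytoskeletal adaptor, was at 99.3 against 7.78 CPM and 128 against 17.2 CPM. The 7th was Cd9, and the remaining 8 of the 15 were the cell division genes Top2a, Pclaf, Ube2c, Mki67, Hist1h1b, Cdca3, Birc5 and Hist1h2ae.

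**Figure D3:**
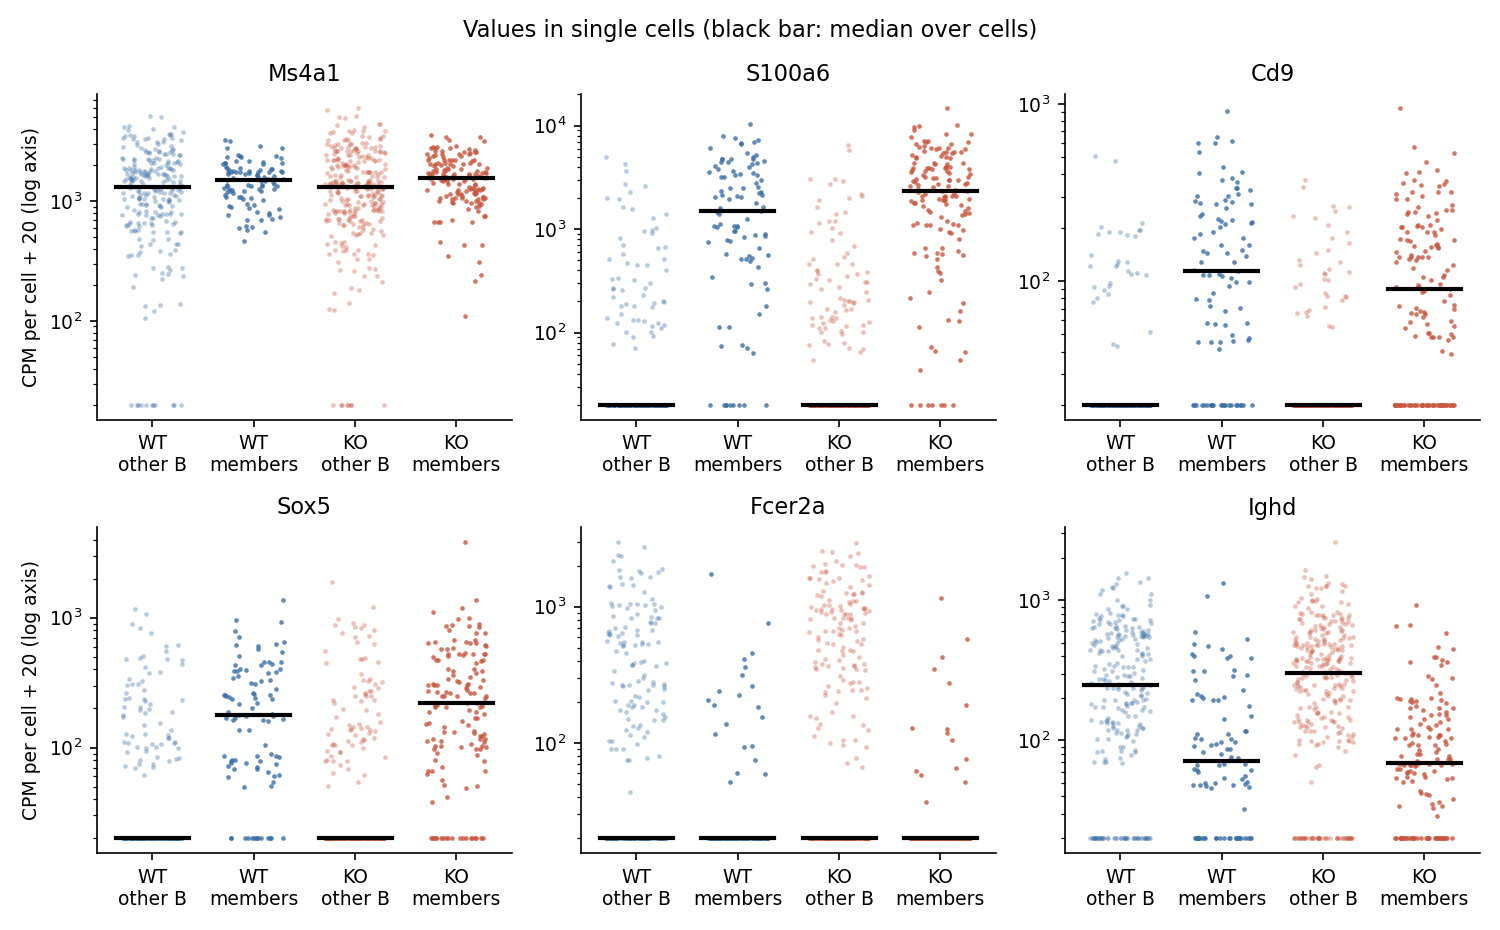
Levels of Ms4a1, S100a6, Cd9, Sox5, Fcer2a and Ighd in every single B cell (CPM of that cell with 20 added, log axis), for members and other B cells of WT and Lyve1 KO; black bars are medians. S100a6 medians were 1464 and 2306 CPM in members and 0 in other B cells, whereas Ms4a1 medians were 1487 and 1542 CPM in members and 1282 and 1291 CPM in other B cells.

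Genes of follicular and immature B cells were lower. Of 12 follicular-type genes, 7 were past the fold on the lower side in both libraries and 0 on the higher side, with list medians of -1.35 in WT and -1.26 in Lyve1 KO. Fcer2a was at 35.4 CPM (29.1 to 42.6) in WT members and 281 CPM in other B cells, and at 13.8 CPM (10.7 to 17.4) against 351 CPM in Lyve1 KO. Ighd, the constant region of IgD, had log2 ratios of -1.52 and -1.87. Bach2, a repressor that holds B cells short of plasma cell fate, was at 154 against 712 CPM and 161 against 779 CPM. The quiescence and recirculation factors Foxo1 (-1.58 and -1.26) and Klf2 (-1.50 and -1.36), the complement regulator Cd55 (-1.37 and -1.43) and Zfp318 (-1.32 and -1.26), which is required for IgD expression, completed the 7.

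Homing receptors of the same list, Cxcr5 and Ccr7, did not pass. Cxcr5, the receptor for the follicle chemokine CXCL13, was at 299 against 244 CPM in WT and 252 against 227 CPM in Lyve1 KO. Ccr7, which guides cells to the T cell zone, was at 502 against 1020 CPM and 520 against 791 CPM, ratios of -0.99 and -0.59.

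Transitional and precursor genes had 3 of 5 measured genes past the fold on the lower side, with medians of -1.25 in WT and -0.83 in Lyve1 KO over the genes measured in each. Sox4, a factor of early lymphocytes, was at 2.25 CPM in WT members and 127 CPM in other WT B cells, and at 9.84 against 178 CPM in Lyve1 KO. Vpreb3, a surrogate light chain-related protein that marks immature B cells, was at 39.2 against 294 CPM and 56.9 against 366 CPM, and Cd93, a surface marker of transitional B cells, had ratios of -1.48 and -1.28. The 10 lowest ratios were counted over all genes, on a list or not, with a UMI in at least 10% of cells. They belonged to Sox4, Cpm, Fcer2a, Vpreb3, Zfp608, Btg1, Atp1b1, Bach2, Lrrk2 and Snx29. Among them Btg1, an antiproliferative gene of resting lymphocytes, was at 262 against 1198 CPM in WT and 291 against 1170 CPM in Lyve1 KO.

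A minority of members kept Fcer2a RNA, 21 cells in WT and 16 in Lyve1 KO. In those cells Ighd was at 269 and 215 CPM, compared with 59.1 and 62.3 CPM in members without Fcer2a, and Cr2, the complement receptor CD21, was at 53.4 and 21.1 CPM compared with 9.28 and 7.52 CPM. S100a6 was at 1603 and 1477 CPM in them and at 2880 and 3201 CPM in the others. Lgals1 followed the same order, with 234 and 162 CPM against 681 and 801 CPM. The group was therefore not uniform, and its cells with Fcer2a lay nearer to other B cells for these genes. Sox5 and Cd9 stayed above other B cells in them. Sox5 was at 248 and 232 CPM in members with Fcer2a and 266 and 297 CPM in members without it. Cd9 was at 124 and 91.3 CPM against 158 and 124 CPM.

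Marginal zone-type, plasma cell and atypical memory lists were counted in the same way. Of 7 marginal zone-type genes 0 were past the fold in both libraries, with medians of -0.05 and -0.03, and Cd36, a scavenger receptor, passed in Lyve1 KO (1.02) and was just under in WT (0.97). Cr2 was at 16.7 against 29.4 CPM in WT and 8.66 against 36.1 CPM in Lyve1 KO, and Cd1d1, the lipid-presenting molecule of marginal zone cells, was at 23.1 against 22.3 CPM and 25.4 against 23.5 CPM. Of 12 plasma cell and secretion genes 0 passed in both, with medians of -0.22 and 0.21. Prdm1, the factor that drives plasma cell fate, was at 4.18 and 4.72 CPM in members, and Sdc1, the plasma cell marker CD138, at 0.32 and 0.20 CPM. Jchain, which joins IgM into pentamers, had 81 UMIs in 23 WT members and 87 UMIs in 24 Lyve1 KO members, with no cell above 19. Before thinning, a Jchain UMI was found in 23 of 97 WT and 24 of 148 Lyve1 KO members. In other B cells it was found in 6 of 243 and 5 of 291 cells, which were less deeply covered. In other WT B cells 1562 of 1573 Jchain UMIs lay in 1 cell, and other Lyve1 KO B cells held 7 UMIs. Atypical and memory-type genes had 2 of 6 past the fold, Sox5 and Cd80, with medians of 0.30 and 0.19, while Tbx21, the factor T-bet of atypical B cells, was at 7.39 and 2.76 CPM in members.

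Receptors that restrain or sense were close to other B cells as groups. Among 11 inhibitors of the B cell receptor, Cd72 was lower (-1.65 in WT and -1.27 in Lyve1 KO) and none was higher in both, with medians of -0.30 and -0.28. Fcgr2b, the inhibitory Fc receptor for IgG, was at 225 against 111 CPM in WT and 250 against 102 CPM in Lyve1 KO, ratios of 0.90 and 1.15. Of 13 signalling genes downstream of the receptor, Rasgrp3, an activator of Ras, was lower (-1.10 and -1.24), with medians of -0.51 and -0.43. Toll-like receptors and their partners had 0 of 10 past the fold in both and medians of 0.18 and 0.04. Ly86, which encodes MD-1, partner of the receptor CD180, was at 693 against 347 CPM and 695 against 411 CPM, Tlr7 at 18.3 and 19.7 CPM, and Tlr9 at 25.1 and 28.1 CPM in members.

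Effector and adhesion genes were counted next. Of 16 migration and adhesion genes, Cd9 and Itgb1 were higher in both, with medians of 0.04 and 0.12. Itgb1, the integrin beta-1 chain that binds matrix and vessel wall ligands, was at 359 against 105 CPM in WT and 373 against 92.0 CPM in Lyve1 KO. Of 13 antigen presentation genes Cd80 was higher and H2-Ob, a brake on peptide loading, was lower (-1.04 and -1.10), with medians of -0.50 and -0.63. Of 7 measured cytokine genes Il12a was lower (-1.36 and -1.31) and none was higher. In Lyve1 KO, where 10 cytokine genes were measured, Il1b (-1.01), Ccl4 (-2.45) and Ltb (-1.04) were lower as well, 4 of 10 against 2.08% of all genes, with ratios of 0.25, -0.68 and -0.67 in WT. The list medians were -0.19 over 7 genes in WT and -0.61 over 10 in Lyve1 KO. Il10, the anti-inflammatory cytokine of regulatory B cells, was too sparse for the count in either library and stood at 11.6 CPM (8.10 to 16.0) against 0.71 CPM in WT and 7.48 CPM (5.29 to 10.3) against 0.26 CPM in Lyve1 KO. Among 8 survival genes Bcl2a1b (1.16 and 1.07) and Bcl2a1d (1.24 and 1.26), near-identical anti-apoptotic copies whose reads can be split between them, were higher, with medians of -0.31 and -0.32.

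Of the 13 B cell identity genes outside the rule, Fcer2a and Ebf1, an early B cell factor, were lower (Ebf1 -1.32 and -1.16) and the rest stayed within the fold in both libraries, with medians of -0.50 and -0.54. Pax5, the factor that maintains B cell identity, was at 336 and 333 CPM in members. Ms4a1 had a UMI in 100% of members of both libraries, and in 95.5% and 97.3% of other B cells.

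Cell division genes were higher as a group, with 14 of 16 past the fold in both libraries and medians of 1.68 in WT and 1.34 in Lyve1 KO. Mki67, a nuclear protein of dividing cells, was at 351 against 41.0 CPM in WT and 405 against 76.8 CPM in Lyve1 KO, and Top2a, the topoisomerase that untangles replicated DNA, had ratios of 2.92 and 2.34. At 7000 UMIs per cell, an Mki67 or Top2a UMI was found in 41.7% of WT members (95% Clopper-Pearson interval 31.7 to 52.2) and 43.2% of Lyve1 KO members (35.1 to 51.6). Other B cells stood at 15.5% and 15.2% and T cells at 37.3% and 22.8%. Without thinning, the shares in members were 57.7% and 60.1%. Division moved with depth: members with an Mki67 or Top2a UMI had medians of 35090 and 35256 UMIs, and members without one had 23378 and 25720. The part of division in depth and in membership was not tested.

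Members without a UMI of Mki67 or Top2a, 41 in WT and 59 in Lyve1 KO, were compared with other B cells without one, a choice made after seeing the data. S100a6 (2.70 and 4.13), Lgals1 (1.98 and 2.68), Ass1 (2.39 and 2.20) and Cd9 (2.40 and 1.99) were still past the fold, as were Fcer2a (-2.04 and -3.75) and Sox4 (-2.77 and -2.77) on the lower side. Sox5 was under the fold in WT, at 0.81, and past it in Lyve1 KO, at 1.89, and Cd80 was past it in WT, at 1.37, and under it in Lyve1 KO, at 0.98. Of the follicular-type genes, Klf2 was no longer past the fold in either library (-0.53 and -0.75), and Ighd (-0.95) and Cd55 (-0.92) were not in WT. Of the 119 higher genes, 35 were also past the fold there, and of the 115 lower genes 64 were. Among cells with at least 15000 UMIs, 62 of the 119 and 27 of the 115 stayed past the fold, with S100a6 at 2.35 and 2.91, Cd9 at 1.53 and 1.22 and Fcer2a at -1.82 and -3.28. In those deep cells Ahr (0.71 and 0.50) and Klf2 (-0.93 and -0.79) were under the fold in both libraries, as was Zfp318 (-0.91 and -0.73), with Cd55 under it in WT (-0.99) and Foxo1 in Lyve1 KO (-0.83). Of the 7 follicular-type genes Fcer2a, Bach2 and Ighd remained past the fold in both libraries there. Among genes of other lists, Bcl2a1b, Bcl2a1d, H2-Ob, Jun and Dusp2 were no longer past the fold in both libraries in either restriction. The heat shock genes Hspa1a and Hspa1b were lower past it in both libraries in deep cells. In cells without Mki67 or Top2a they were not past it in both. In deep cells Bcl2a1b was at 0.68 and 0.34, Bcl2a1d at 0.98 and 0.69, and H2-Ob at -0.59 and -0.75. Ebf1 (-0.74 and -0.75) and Rasgrp3 (-0.64 and -0.67) were under the fold in deep cells as well, and Cd72 was in Lyve1 KO (-0.62).

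No gene of the immediate early and stress lists was past the fold on the higher side. Atf3, a stress-induced transcription factor, was at 148 against 132 CPM in WT and 150 against 99 CPM in Lyve1 KO, ratios of 0.15 and 0.51. Of 15 immediate early genes, Jun (-2.13 and -1.67) and Dusp2 (-1.41 and -1.37) were lower, with medians of -0.36 and -0.28. Of 9 stress genes, the heat shock genes Hspa1a (-1.65 and -1.49) and Hspa1b (-1.48 and -1.56) were lower in both libraries, with medians of -1.05 and -0.53. In WT alone, the heat shock genes Hsph1 (-1.05) and Dnajb1 (-1.25), the nuclear RNA Malat1 (-1.19) and the immediate early genes Fos (-1.04) and Dusp1 (-1.30) were also lower past the fold.

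The immunoglobulin genes gave a second view of the cells. Ighm, the constant region of IgM, was the leading heavy constant gene in 99.0% of WT and 99.3% of Lyve1 KO members with at least 5 heavy constant UMIs, and the remaining cell of each library was led by Ighd. No member was led by a switched class, 0 of 97 and 0 of 147 cells, which allows a share of up to 3.09% and 2.04% by a floor of 3 counts, and of up to 3.73% and 2.48% by the Clopper-Pearson interval of a single class. Ighm itself reached 1859 CPM in WT and 1739 CPM in Lyve1 KO members, and 2241 and 1531 CPM in other B cells. In WT, 1859 of the 6336 Ighm UMIs of other B cells lay in the 1 cell rich in Jchain, and without it their level was 1609 CPM, below members. Ighg3 was the switched class with RNA in members, at 22.2 against 1.77 CPM in WT and 25.4 against 1.57 CPM in Lyve1 KO. After thinning it was found in 11.5% and 10.1% of members and in 1.0% and 1.2% of other B cells. Of 7 measured constant genes Ighd alone was past the fold in both, on the lower side, and the medians were -0.27 and -0.36.

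Of the heavy chain variable segments, Ighv2-2, which led the most members over both libraries, Ighv1-26, which came next in a tie with Ighv3-6, and the segments known from B-1 cells that bind phosphatidylcholine, Ighv11-2 and Ighv12-3, are shown by their last 150 bases, which end the region that sits beside the CDR3 junction. The genomic sequences are from GRCm38 with GENCODE M21 annotation, minus strand of chromosome 12, 5′ to 3′. Capitals mark the last match to TNCTGT (T, any base, CTGT, on the printed strand) before the 3′ end, whose TGT is the codon of the conserved cysteine that opens the CDR3.
Ighv2-2 (chr12:113588267-113588416): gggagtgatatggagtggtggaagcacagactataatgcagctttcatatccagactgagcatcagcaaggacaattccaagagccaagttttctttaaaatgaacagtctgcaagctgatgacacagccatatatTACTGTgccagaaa
Ighv1-26 (chr12:114788372-114788521): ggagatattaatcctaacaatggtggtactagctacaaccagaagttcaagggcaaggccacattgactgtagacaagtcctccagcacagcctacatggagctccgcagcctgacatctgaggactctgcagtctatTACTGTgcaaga
Ighv11-2 (chr12:114048241-114048390): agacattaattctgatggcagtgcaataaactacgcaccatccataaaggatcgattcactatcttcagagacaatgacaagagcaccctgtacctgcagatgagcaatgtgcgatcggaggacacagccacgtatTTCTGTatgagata
Ighv12-3 (chr12:114366521-114366670): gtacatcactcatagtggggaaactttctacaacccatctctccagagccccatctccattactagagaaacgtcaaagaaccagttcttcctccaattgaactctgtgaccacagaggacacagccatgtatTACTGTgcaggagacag

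A leading heavy segment could be given to 93 WT and 145 Lyve1 KO members, the one with at least 5 UMIs and at least 2 times the second. Ighv2-2 led 7 WT members (7.53%) and 8 Lyve1 KO members (5.52%), and 2.75% and 1.54% of other B cells. Ighv1-26 led 4.30% and 6.21% of members and 2.75% and 5.41% of other B cells, and Ighv3-6 led 4.30% and 6.21% against 6.88% and 3.47%. Ighv7-3, named after its values were seen, led 5 WT members (5.38%) but 1 Lyve1 KO member. No segment led a large part of the group. Among light chains, Igkv1-117 led 6.74% and 9.92% of members, Igkv10-96 led 6.74% and 5.34%, Igkv1-110 led 4.49% and 9.16%, and Iglv1 led 13.5% in WT and 3.82% in Lyve1 KO. The constant genes gave another picture: Iglc1 to Iglc3 of the lambda chain led 94.8% of WT and 93.2% of Lyve1 KO members, and 93.8% and 91.0% of other B cells, although most leading variable segments were kappa. The cause was not tested, so light chain usage is uncertain.

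Pairs of heavy and light segments were mostly seen once. The 85 WT members with both chains held 77 distinct pairs and the 129 Lyve1 KO members held 117. Cells in a pair seen at least 2 times made up 17.6% and 16.3% of these members, and 17.5% and 11.1% of other B cells. Of the 7 WT members with Ighv2-2, 2 each used Igkv1-135, Igkv10-96 and Iglv1, and 1 used Igkv6-32. Most of them thus sat in repeated pairs, but this segment was not the mark of 1 pair. In Lyve1 KO, 2 of the 8 members with Ighv2-2 shared Igkv1-117. A shared pair of segments is not proof of shared descent, because the junction was not read here and V segments that are close copies can exchange reads.

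The phosphatidylcholine-type segments were rare. Ighv11-2 led 3 Lyve1 KO members, 0 WT members and 1 Lyve1 KO other B cell, and Ighv12-3 led 1 Lyve1 KO member and 1 other B cell in each library. The pairs of these segments known from B-1a cells, Ighv11-2 with Igkv14-126 and Ighv12-3 with Igkv4-91, occurred in 1 Lyve1 KO member each, which was looked up after the values were seen.

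RNA of other cell types was counted in the members. T cell genes summed to 17 UMIs in WT and 81 in Lyve1 KO members, of which 35 lay in 1 cell, and natural killer genes summed to 1 and 0. Cardiomyocyte genes were at 8.68 and 5.31 CPM, endothelial genes at 2.89 and 0.79 CPM and fibroblast genes at 1.29 and 0.39 CPM, with Col1a2 or Col1a1 at 0 in each library. The plasmacytoid dendritic list was led by Ly6d, which B cells also express (1252 and 1191 CPM in members), and its gene Klk1 was at 0. Neutrophil genes were confined nearly to 1 cell per library, with 386 of 390 UMIs in WT and 3020 of 3034 in Lyve1 KO. S100a8 and S100a9 are of this list, and both were counted among the 119 genes higher in members of both libraries. Likewise 145 of 183 erythroid UMIs in WT members lay in 1 cell.

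Macrophage genes were the exception, against other B cells mainly through Mrc1 and, under the fold, Cd68. Ly6c2 held the most UMIs of the list in WT members, 150 (48.2 CPM), and was not past the fold there. Mrc1, the mannose receptor of resident macrophages, was at 40.2 CPM (33.4 to 47.9) in WT members and 6.72 CPM in other B cells, and at 45.7 CPM (40.0 to 51.9) against 9.67 CPM in Lyve1 KO, ratios of 1.17 and 1.15. Cells with at least 2 Csf1r UMIs, taken as the macrophages and monocytes of these libraries, had 1522 and 938 CPM. At 7000 UMIs, Mrc1 was found in 15.6% and 22.3% of members, 3.0% and 5.1% of other B cells and 63.3% and 42.8% of Csf1r cells. Cd68, a lysosomal protein of macrophages, was at 19.6 against 7.07 CPM in WT and 22.4 against 13.1 CPM in Lyve1 KO, ratios of 0.55 and 0.36, with a UMI in 30.9% and 34.5% of members and 5.76% and 8.25% of other B cells before thinning. The defining macrophage gene C1qa was near 0 in members, at 1.29 and 0.39 CPM, and Lyz2 was at 1.97 and 2.19 CPM once the neutrophil-rich cells were left out, against 6885 and 9209 CPM in Csf1r cells. The whole macrophage and monocyte list, 12 genes, summed to 132 and 171 CPM in members, 77.8 and 123 CPM in other B cells and 22512 and 19986 CPM in Csf1r cells. Without Mrc1, Cd68 and the neutrophil-rich cells it summed to 61.9 and 49.9 CPM in members and 64.0 and 99.8 CPM in other B cells. In members without Mki67 or Top2a, Mrc1 was at 31.5 and 51.7 CPM. Among cells of at least 15000 UMIs its ratio was 1.13 in WT and, under the fold, 0.95 in Lyve1 KO. The part of macrophage RNA in the Mrc1 level was not tested beyond these counts.

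The comparison of genotypes began with the target. In Csf1r cells, Lyve1 (chr7:110850607-110863239, GRCm38) stood at 380 CPM in the WT library and 15.3 CPM in Lyve1 KO, in the direction of the labels. B cells hardly carried Lyve1 RNA, with 0 UMIs in WT members and 6 in Lyve1 KO members (1.18 CPM). Other B cells held 2 UMIs in WT (0.71 CPM) and 45 in Lyve1 KO (11.8 CPM), the opposite order to Csf1r cells and close to the level of the Lyve1 KO Csf1r cells, and the source of this RNA was not tested. The knockout can therefore not be read from the members themselves.

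Members made up 28.5% of B cells in WT (97 of 340, 95% interval 23.8 to 33.6) and 33.7% in Lyve1 KO (148 of 439, 29.3 to 38.3). The difference was 5.18 percentage points, with a 95% Newcombe interval of -1.40 to 11.6. This interval covers the counting of cells in these libraries and not the spread between animals, and with a UMI of each rule gene asked for the shares were 20.9% and 20.3%. Of all immune cells within the limits they were 2.87% and 5.34%, a difference of 2.48 points (1.48 to 3.51). All B cells together were 10.1% and 15.9%, a difference of 5.79 points (4.11 to 7.50). The larger share of members among all immune cells thus went with a larger share of B cells of both kinds. More B cells and fewer cells of other types in the Lyve1 KO library cannot be told apart from shares.

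The pools differed in sex. Cells were called male-type by UMIs of the Y-linked genes without Xist and female-type by Xist without the Y-linked genes. Male-type cells were 85.6% of WT and 53.4% of Lyve1 KO members, and 63.4% and 52.2% of other B cells. Among male-type B cells the share of members was 35.0% in WT (83 of 237) and 34.2% in Lyve1 KO (79 of 231), a difference of -0.822 points (-9.37 to 7.76). Among female-type B cells it was 14.7% in WT (10 of 68) and 37.6% in Lyve1 KO (56 of 149), a difference of 22.9 points (10.2 to 33.2). Male-type cells thus gave nearly the same share in both libraries, and the shares differed in the female-type cells, of which the WT members numbered 10. B cells without a clear call of sex gave 4 of 35 in WT (11.4%, 3.20 to 26.7) and 13 of 59 in Lyve1 KO (22%, 12.3 to 34.7). How many of the 5 hearts in each pool were female was not given, and cells were not assigned to single hearts here. Sex composition and genotype cannot be told apart in the pooled values.

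**Figure D4:**
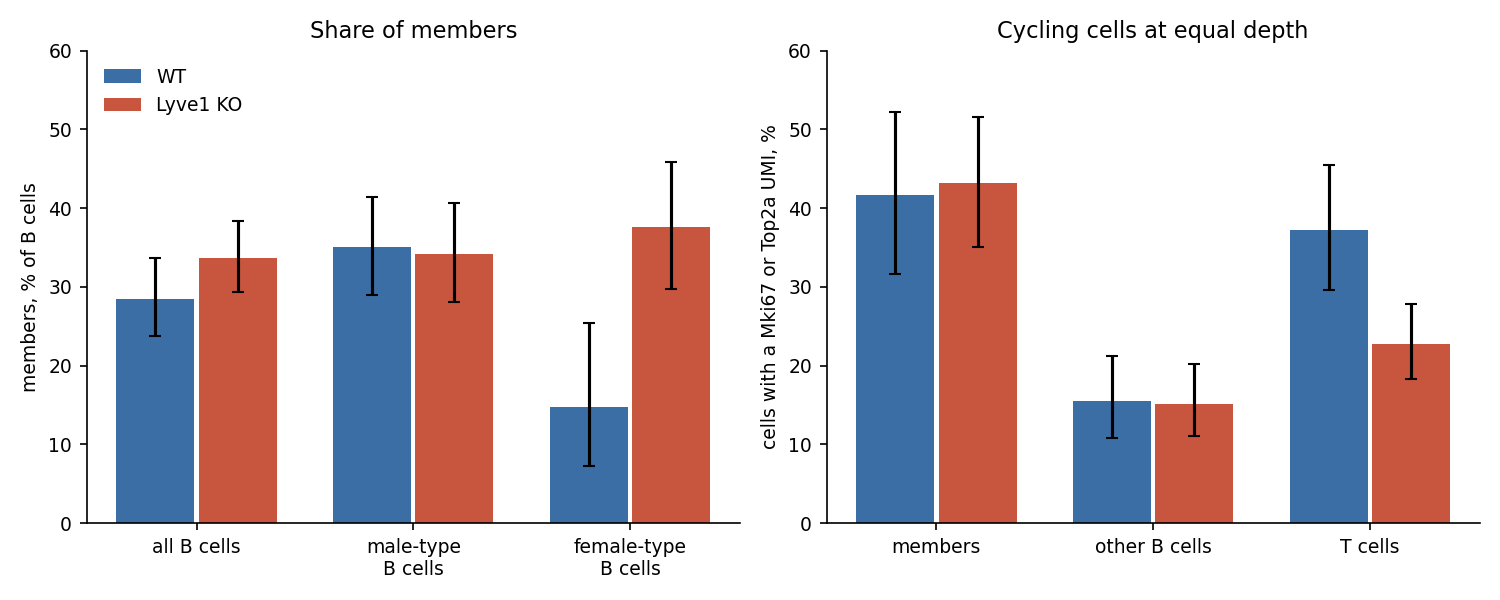
Left, the share of members among B cells in percent for all, male-type and female-type cells; right, the share of cells with an Mki67 or Top2a UMI at 7000 UMIs for members, other B cells and T cells, in WT and Lyve1 KO, with 95% Clopper-Pearson intervals. Male-type shares were 35.0% and 34.2% and female-type shares 14.7% and 37.6%.

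Gene levels in members were similar between the libraries. Of 9017 genes, 56 were past the fold higher in Lyve1 KO (0.621%) and 41 lower (0.455%), with a median ratio of 0.01 over all genes. Variable segments of immunoglobulins, each carried by few cells, made up 36 of the 56 and 34 of the 41. None of the genes of the innate-like B-1, follicular-type, transitional, marginal zone, plasma cell, receptor, Toll-like, migration, cytokine, antigen presentation or cell division lists was past the fold between genotypes. S100a6 (2665 and 3056 CPM), Cd9 (152 and 121 CPM) and Sox5 (263 and 292 CPM) were examples, with ratios of 0.20, -0.29 and 0.14. The nearest of the B-1 list was Bhlhe41, higher in Lyve1 KO by 0.89 in members and by 0.20 in other B cells. After thinning it was found in 18.8% of WT and 37.2% of Lyve1 KO members.

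Outside the segments 20 genes were higher, and 15 of them were no longer past the fold once the neutrophil-rich cell of each library was left out. The other 5 were Airn, Hist1h4d, Il31ra, Lgals3 and Xist. Il31ra, a chain of the interleukin 31 receptor, had a ratio of 1.10 in members and 1.12 in other B cells. Hist1h4d, a histone gene, had 1.04 and 1.56, and Lgals3, the lectin galectin-3, 1.03 and 0.78. Xist (1.52 in members and 0.19 in other B cells) moved with the sex of the cells. Airn, a noncoding RNA of the imprinted Igf2r locus, had 1.02 and 0.39. Under the fold, Bhlhe41 had 0.89 and 0.20, and Crisp1 had 0.88 and -0.19. Not all of the 5 genes past the fold held in subsets. In male-type cells alone Il31ra (0.43) and Hist1h4d (0.90) were under the fold. Male-type cells without the neutrophil-rich cells gave 4 higher genes outside the segments, Airn, Lgals3, Agbl1 and Alcam. They gave 9 lower genes, among them Maff, Myc and Trim30b, which were not past the fold in all members. Hbb-bs was not among the 9. In female-type cells alone Airn (-0.04) and Xist (-0.26) turned direction. Lgals3 turned to -0.39 when cells with other-lineage markers and the deepest cells were left out.

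Lower in Lyve1 KO outside the segments were 7 genes, Dynlt1b, Hbb-bs, mt-Nd3, Trim12a, Trim30d, Trim34a and Trim5. The 4 Trim genes, antiviral ubiquitin ligases that sit close together on chromosome 7 (chr7:104244457-104507849, GRCm38), the chromosome of Lyve1, were lower in other B cells as well. Trim12a had 196 UMIs in WT members and 1 in Lyve1 KO members, ratios of -2.04 in members and -2.80 in other B cells. Trim30d and Trim5 had 0 UMIs in Lyve1 KO members and were at least 59.3-fold and at least 66.4-fold lower against a floor of 3 counts over the group, and Trim34a had a ratio of -1.34. Neighbours in the same cluster were present in both, with Trim12c at 44.3 and 41.9 CPM and Trim30a at 85.5 and 64.6 CPM in members. These genes are close copies of each other, so reads can pass between them and their single values are uncertain.

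The other 3 lay elsewhere or in single cells. Dynlt1b (chr17:6430112-6436296, GRCm38), a dynein light chain, had 176 UMIs in WT members and 0 in Lyve1 KO members, at least 95.8-fold lower, and a ratio of -1.81 in other B cells. The mitochondrial gene mt-Nd3, a subunit of respiratory complex I, stood at 213 CPM in WT members and 51.6 CPM in Lyve1 KO members, ratios of -1.70 and -1.63. Hbb-bs, a haemoglobin chain, followed the erythroid-rich WT cell at -1.55. Genotype, strain background, litter and library cannot be told apart with 1 pool each, so none of these values is assigned to the loss of Lyve1.

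**Figure D5:**
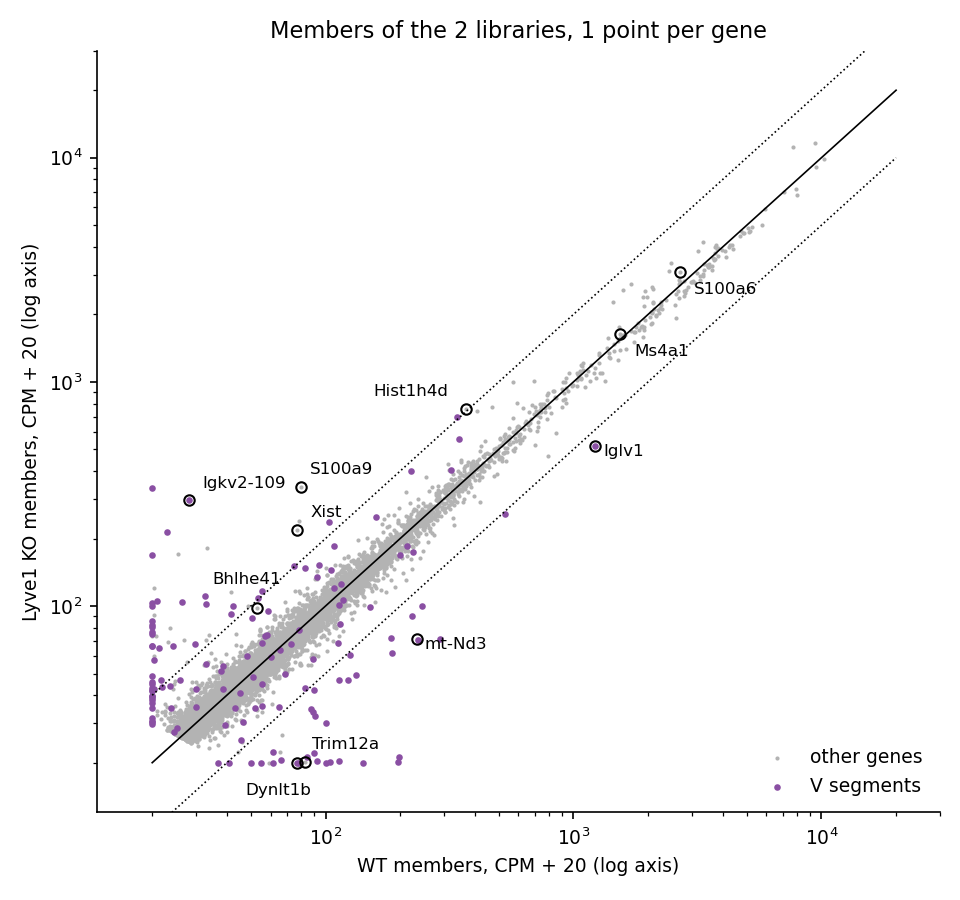
Level of each gene in Lyve1 KO members against WT members (CPM with 20 added, log axes), with immunoglobulin variable segments in purple and dotted lines at 2-fold. Variable segments make up 36 of the 56 genes above the upper line and 34 of the 41 below the lower one, where Trim12a, Dynlt1b and mt-Nd3 lie farthest out among the remaining genes.

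Among genes with a UMI in at least 10% of members of the higher library, the highest ratio between genotypes belonged to a light chain segment. Igkv2-109 was at 8.03 CPM in WT members and 276 CPM in Lyve1 KO members, a ratio of 3.40, and had a ratio of -1.65 in other B cells. It led 0 WT and 5 Lyve1 KO members and 5 WT and 1 Lyve1 KO other B cells, so few cells carried the value. Iglv1 went from 1201 to 499 CPM in members, a ratio of -1.23, and had -0.40 in other B cells.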

How the data were processed

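The authors deposited 1 matrix of UMI counts per library, made with Cell Ranger 8.0.1 per the submitters' processing notes against mm10 (GRCm38). The study's own description names a later release of the tool. The counts as deposited are not normalized and are not restricted to the cells the authors assigned to single hearts. That assignment and their removal of doublets used reads and are not used here, and no doublet caller was run. Depth ranged from 6827 to 80654 UMIs per WT member and from 7316 to 112786 per Lyve1 KO member.

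UMIs were summed per library and group, scaled to CPM and compared as log2 ratios with 20 CPM added, for genes with at least 50 UMIs in the groups compared, in Python 3.11.15 (numpy 2.4.6, scipy 1.17.1, pandas 2.3.3, matplotlib 3.10.9), and the steps were checked on simulated counts. Shares have Clopper-Pearson intervals, differences of shares Newcombe intervals and levels Poisson intervals, all at 95%. Of 32285 gene IDs, 32235 were found in GENCODE M21. Named genes were the markers, list genes past the fold in both libraries with the defining genes of each list, the 15 highest and 10 lowest ratios against other B cells and the 8 highest and lowest between genotypes (with a UMI in at least 10% of cells), and the 6 heavy and 6 light segments used most. List medians run over the genes measured in that library. The members and the 29 gene lists were chosen with earlier results of these data known. Alternatives were another pseudocount, thinning, both rule genes, stricter lineage and depth limits, each sex alone and per-cell means. Some genes of the lists are not reported here by name.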

Additional observations from a re-analysis of the deposited data

Results flagged for a closer look

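The share of Zbtb32 Fcrl5 B cells among B cells differed between the libraries by 22.9 percentage points in female-type cells (14.7% in WT, 37.6% in Lyve1 KO) and by -0.822 points in male-type cells (35.0% and 34.2%). It stands out because the same contrast gave a difference in one sex and nearly none in the other. The difference between the sexes was not tested, since each genotype was 1 pool and cells were not assigned to single hearts here. The WT value rests on 10 cells. The number of hearts of each sex in a pool was not given, and the part of single animals was not tested.

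The light chain segment Igkv2-109 stood out through opposite directions in groups of the same library. Its log2 ratio of members over other B cells was -3.20 in WT and 1.85 in Lyve1 KO, and its ratio of Lyve1 KO over WT was 3.40 in members and -1.65 in other B cells. It led 5 Lyve1 KO members, 0 WT members, 5 other WT B cells and 1 other Lyve1 KO B cell. The difference was not tested.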

How the results depend on the processing

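Leaving out a replicate was not possible with 1 library per genotype and no assignment of cells to single hearts here. No paired analysis was possible because each genotype had 1 library. Doublet calling by simulation was not run. The choices of cells without Mki67 or Top2a, cells of at least 15000 UMIs, and leaving out neutrophil-rich cells, Jchain-rich cells or variable segments were made after seeing the data. The rule counts UMIs, so depth limits who is a member.

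The share of members among B cells, 28.5% in WT and 33.7% in Lyve1 KO, became 20.9% and 20.3% with a UMI of each rule gene, 21.7% and 23.4% after thinning before the rule, 17.9% and 23.8% without other-lineage and the deepest cells, 17.1% and 20% in cells without Mki67 or Top2a, and 62.9% and 65.1% in cells of at least 15000 UMIs. Male-type cells gave 35.0% in WT and female-type cells 14.7%, and the female-type difference was 22.9 points. The lineage filter left 48 WT and 77 Lyve1 KO members, and most cells it removed held at least 2 UMIs of Mrc1, Cd68 or Ly6c2.

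With 5 CPM added in place of 20, genes higher in members numbered 382 in WT, 412 in Lyve1 KO and 264 in both, genes lower 417, 415 and 230, and genes higher in Lyve1 KO members than in WT 98. The lineage filter left 112, 112 and 54 higher genes in WT, Lyve1 KO and both. Female-type cells alone gave 88 higher in WT, 25 higher and 59 lower in both, and 281 higher in Lyve1 KO than in WT. Cells without Mki67 or Top2a gave 84 higher in WT and 49 in both, and cells of at least 15000 UMIs gave 67 higher in both, 95 lower in WT and 32 lower in both. Without variable segments 20 genes were higher and 7 lower in Lyve1 KO. The cause of these changes was not tested.

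The B-1 list median in WT became 1.09 with 5 CPM added. The follicular-type median stayed below 0 in WT at -0.92 (lineage filter), -0.65 (female-type), -1.11 (mean of single cells), -0.82 (without Mki67 or Top2a) and -0.93 (at least 15000 UMIs), and in Lyve1 KO at -1.10 (lineage filter), -1.08 (female-type), -1.46 (5 CPM), -0.98 (without Mki67 or Top2a) and -0.80 (at least 15000 UMIs). Ighm led 100% of members with at least 20 heavy constant UMIs in both libraries.

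Of 1423 single-gene values of members over other B cells, 9 changed sign. In cells without Mki67 or Top2a these were the cell division genes Hist1h2ae (-0.31 in WT, -0.61 in Lyve1 KO), Hmgb2 (-0.41 and -0.013) and Stmn1 (-0.11 and -0.18), and Tubb5 in Lyve1 KO (-0.18). Klf2 was at 0.41 in WT female-type cells and Hist1h1b at -0.031 in Lyve1 KO under the lineage filter. Of 173 values of Lyve1 KO over WT, 3 changed sign: Airn (-0.041) and Xist (-0.26) in female-type cells and Lgals3 (-0.39) under the lineage filter.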
